A study of Mus musculus with 9 samples.

Results

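The loci of 39 genes that encode regulators of chromatin and DNA methylation were followed across 9 ATAC-seq peak lists from mouse CD8 T cells. The genes were chosen by function, as a given set, and a region of open chromatin was assigned to a gene if it overlapped the gene body or, failing that, if the nearest end of a protein-coding gene within 100 kb was that gene's. Of 62963 union regions, made by merging all peaks that shared at least 1 base, 284 belonged to the set, and the 39 genes were part of 21627 protein-coding genes. All 39 had at least 1 region, no region belonged to 2 of them, and 6 regions were also assigned to a gene outside the set.

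ATAC-seq uses the Tn5 transposase to insert adapters into open DNA. The cells were P14 cells, transgenic CD8 T cells whose receptor recognises a glycoprotein peptide of lymphocytic choriomeningitis virus (LCMV), and they came from lymph nodes draining a tumor. Hosts were C57BL/6 mice bearing B16.Gp, a B16.F10 melanoma line made to express that glycoprotein, and each received 500000 CD44- GFP+ naive cells from TCF-1-GFP reporter P14 mice on day 8 of tumor growth. CD45.1+ CD44+ CD8 T cells were sorted 4, 8 or 21 days after transfer, labelled wild type at all 3 times, and each library was made from 50000 cells. There were 3 lists per day. Neither an untransferred P14 sample nor cells from tumor-free hosts belong to the groups compared here, and no source used here gives the ages of the mice.

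DNA methyltransferases place methyl groups on cytosines, TET enzymes oxidise them, Polycomb repressive complex 2 (PRC2) and the H3K9 methyltransferases mark silenced chromatin, and acetyltransferases, deacetylases and SWI/SNF-type remodellers set how open regulatory DNA is. In CD8 T cells these enzymes are known for shaping whether activated cells become effector, memory or exhausted cells. Peak lists show open DNA at their genes, not transcripts or proteins.

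Promoters carried the most constant openness of the set, so the DNA before the start of 6 members is shown first. They are 4 genes of DNA methylation or PRC2 (Dnmt1, Dnmt3a, Tet2 and Ezh2), Hdac5, the member with the largest difference that passed a test among those with a listed start under a region, and Tet1, chosen after its values were seen because its start was called on the later days only. Each sequence is the 250 bases before a RefSeq start (GRCm38.p6), read 5′ to 3′ on the gene's strand. Capitals mark GGGCGG, a letter string of SP and KLF factors, and CCAAT, that of the CCAAT box, on either strand.
Dnmt1: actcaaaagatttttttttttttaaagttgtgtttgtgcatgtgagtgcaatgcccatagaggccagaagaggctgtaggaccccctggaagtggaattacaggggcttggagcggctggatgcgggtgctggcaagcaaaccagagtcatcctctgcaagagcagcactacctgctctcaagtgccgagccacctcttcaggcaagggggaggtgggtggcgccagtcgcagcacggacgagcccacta
Dnmt3a: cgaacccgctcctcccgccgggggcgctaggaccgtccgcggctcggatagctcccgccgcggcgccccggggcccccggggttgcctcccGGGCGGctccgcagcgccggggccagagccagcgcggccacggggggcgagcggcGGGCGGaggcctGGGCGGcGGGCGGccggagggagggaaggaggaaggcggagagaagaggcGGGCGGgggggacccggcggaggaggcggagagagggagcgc
Tet2: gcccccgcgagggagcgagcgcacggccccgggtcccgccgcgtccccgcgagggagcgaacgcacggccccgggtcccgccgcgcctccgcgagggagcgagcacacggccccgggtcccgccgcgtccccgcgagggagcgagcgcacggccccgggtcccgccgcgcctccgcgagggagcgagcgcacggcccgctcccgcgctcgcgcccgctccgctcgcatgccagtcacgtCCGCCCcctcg
Ezh2: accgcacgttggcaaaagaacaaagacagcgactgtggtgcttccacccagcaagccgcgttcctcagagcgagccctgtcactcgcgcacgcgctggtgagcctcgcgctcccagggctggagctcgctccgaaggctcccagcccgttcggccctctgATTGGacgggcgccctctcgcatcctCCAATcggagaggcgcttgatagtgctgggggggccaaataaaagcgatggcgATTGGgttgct
Hdac5: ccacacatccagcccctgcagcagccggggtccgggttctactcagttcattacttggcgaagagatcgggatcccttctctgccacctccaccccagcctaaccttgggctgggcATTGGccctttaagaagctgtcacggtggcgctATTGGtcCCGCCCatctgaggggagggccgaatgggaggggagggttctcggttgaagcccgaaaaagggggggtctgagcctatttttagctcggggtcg
Tet1: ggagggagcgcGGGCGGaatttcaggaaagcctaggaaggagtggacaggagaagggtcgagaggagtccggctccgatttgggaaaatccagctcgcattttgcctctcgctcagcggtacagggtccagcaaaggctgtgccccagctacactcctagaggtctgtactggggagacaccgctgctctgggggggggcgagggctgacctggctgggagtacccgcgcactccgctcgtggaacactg

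These stretches lie at chr9:20952980-20953229 (minus strand) for Dnmt1, chr12:3806730-3806979 (plus strand) for Dnmt3a, chr3:133544391-133544640 (minus strand) for Tet2, chr6:47595031-47595280 (minus strand) for Ezh2, chr11:102230173-102230422 (minus strand) for Hdac5 and chr10:62887325-62887574 (minus strand) for Tet1 (mm10). The Dnmt3a stretch held 5 copies of GGGCGG and was 82.4% G or C, and that of Ezh2 held 3 CCAAT boxes and no GGGCGG. The Dnmt1 stretch held neither string. Its observed-to-expected CpG ratio was 0.380, against 1.19 for Tet2, the highest of the 6. Another listed start of Dnmt1 in the same open region (chr9:20952623) had 2 copies of GGGCGG, 3 CCAAT boxes and a ratio of 0.890 before it. The start that follows each stretch lay in a region called in 9 of 9 lists, except that of Tet1, which was called in 0 of 3 lists on day 4 and in 3 of 3 on each later day.

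RefSeq starts were listed for 34 of the 39 genes, and with 1 start per gene, 26 of 34 (76.5%) lay in a region called in all 9 lists, against 42.9% of 17273 genes. Among starts called in all 9 lists, GGGCGG on either strand was found before 21 of 26 member starts (80.8%), against 64.8% of 7416 genes, and CCAAT before 5 (19.2%), against 39.5%. The median CpG ratio of these was 0.884 for members and 0.784 for all such genes. Genes with entries and open starts in the set were thus on the CpG-rich side, as a description with no test. A string match does not show that a factor binds.

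Within a day, summit heights of any pair of lists varied less than independent counts would (chi-square 0.417 to 0.444 per region, 9 pairs), while those of lists from different days gave 0.965 to 1.19 (27 pairs). A summit height is a maximum and not a count, and the effect of this on the values was not tested. Their peak names share 1 sample number per day, and the labels do not say that they come from separate animals. No pair held identical calls, since at most 0.794 of the regions called in either of 2 lists were called in both. Each SD and p-value below is therefore over peak lists and may describe technical spread only. Day 4 lists held 19499 to 22250 peaks, day 8 lists 47513 to 50835 and day 21 lists 46492 to 51671. At the 15109 regions called in all 9 lists, median summit height over the smallest local background was 10.7 to 11.2 on day 4, 26.6 to 28.6 on day 8 and 24.4 or more on day 21. Library quality and day cannot be told apart here. Of the CD8 T cell markers 11 of 12 had regions, with 31 to 35 called per list on day 4, 79 to 83 on day 8 and 77 to 88 on day 21. No region was assigned to Trac. A gene that is not listed as protein-coding also counts as 0, so this does not show closed DNA there. B cell markers went from 2 to 4 regions per list on day 4 to 21 on day 8 and 18 to 24 on day 21, with 7 of 10 at 0 on day 4, and stromal and endothelial markers from 3 to 5 to 27 to 30 and 25 to 30. Melanoma markers had 4 to 6, 8 to 9 and 10 to 12, with Tyr, Tyrp1, Sox10 and Slc45a2 at 0 in every list. The part of other cells in the results was not tested.

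On day 4 the regions of the set were split about evenly between gene starts and gene bodies, and on day 8 those inside gene bodies were the majority. The 284 regions were called 91, 80 and 99 times in the day 4 lists, 222, 217 and 220 times in the day 8 lists and 206, 210 and 232 times in the day 21 lists. Days 8 and 21 lay far above day 4 and overlapped each other. The mean rose from 90 ± 9.54 to 219.7 ± 2.52 (SD, n = 3 lists; exact permutation test, two-sided p = 0.1, the smallest that 3 against 3 lists allow), a ratio of 2.44, and all regions together had 2.46. Day 21 differed from day 8 by −3.67 regions (exact permutation p = 0.8). The set made up 0.445% to 0.493% of the regions of every list, so its share of open regions changed little while the lists grew.

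**Figure D1:**
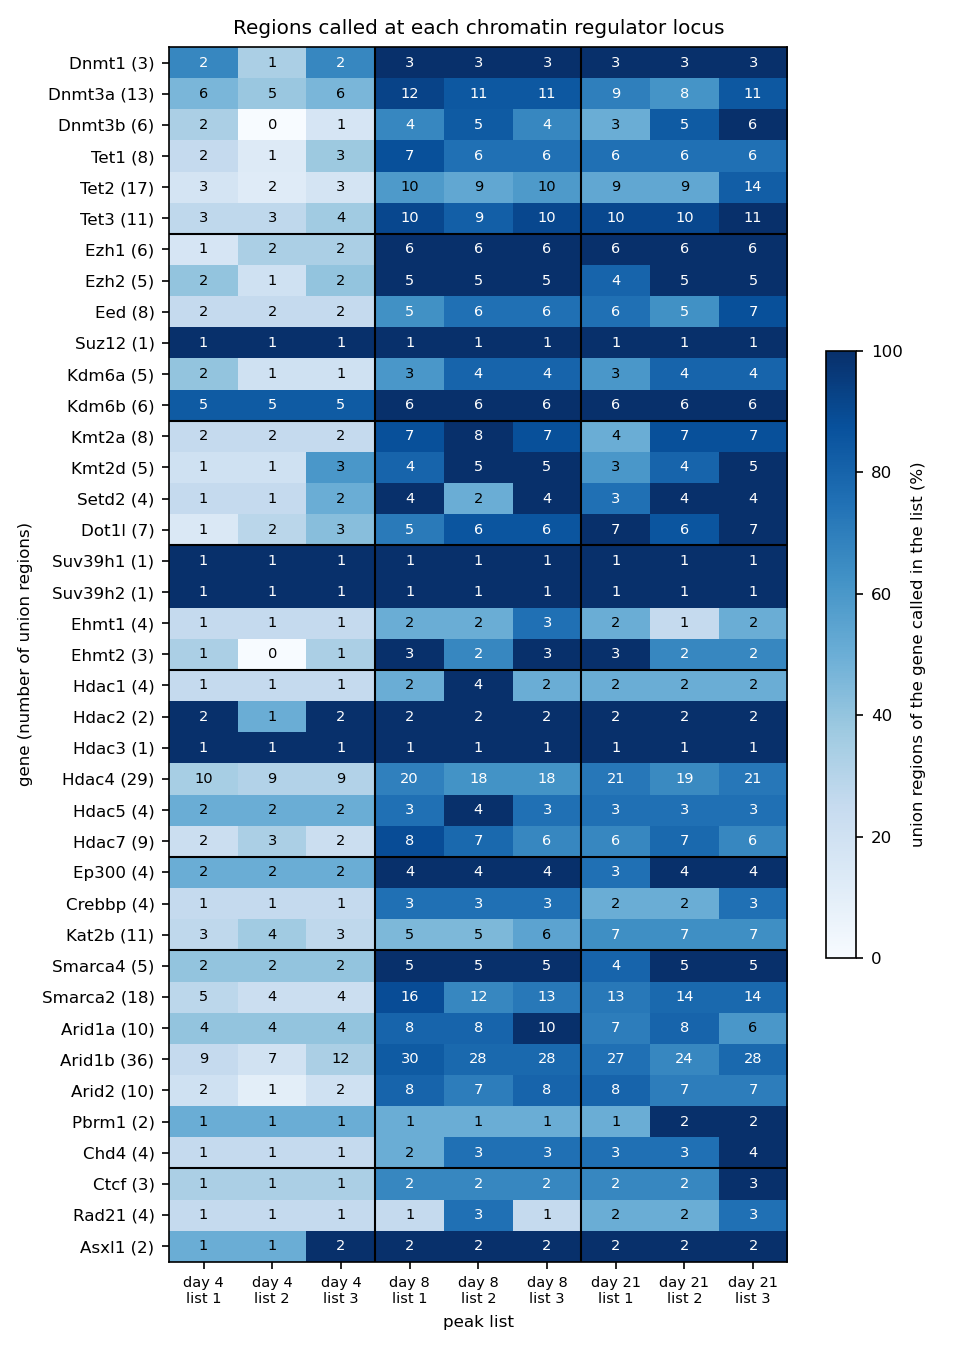
Regions called at each of the 39 loci (rows, grouped by role, with the number of union regions in parentheses) in each of the 9 peak lists (columns); the number is the count and the shade is the percentage of the gene's union regions called. Most loci are pale in the day 4 columns and dark in those of days 8 and 21, while Suz12, Suv39h1, Suv39h2 and Hdac3 have 1 region called in every list.

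Within 1 kb of a start of any gene the members had 38.3 ± 0.577 regions on day 4 and 49.7 ± 0.577 on day 8. Elsewhere in gene bodies they had 43.0 ± 5.57 and 137.7 ± 2.52, and outside genes 8.67 ± 4.04 and 32.3 ± 1.53. The share near a start was 42.9% ± 4.17 on day 4, 22.6% ± 0.392 on day 8 and 22.6% ± 1.67 on day 21 (exact permutation p = 0.1 for day 8 against day 4 and p = 1 for day 21 against day 8), beside 48.5%, 26.9% and 26.5% over all regions. Of the member regions 71 (25%) were called in all 9 lists, beside 24.0% of all regions. Of the 71, 36 were near a start, 32 elsewhere in a gene body and 3 outside. These were 66.7%, 17.7% and 6.12% of the member regions at each position, beside 60.1%, 13.2% and 14.1% over all regions. In all 37 of the 39 members had a region called in all 9 lists, 33 of them near a start, which may be that of another gene. No such count over all genes is given here. The region counted for Kmt2d lay 39.25 kb from its listed start, and that for Rad21 lay 1.44 kb from its nearer gene end.

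**Figure D2:**
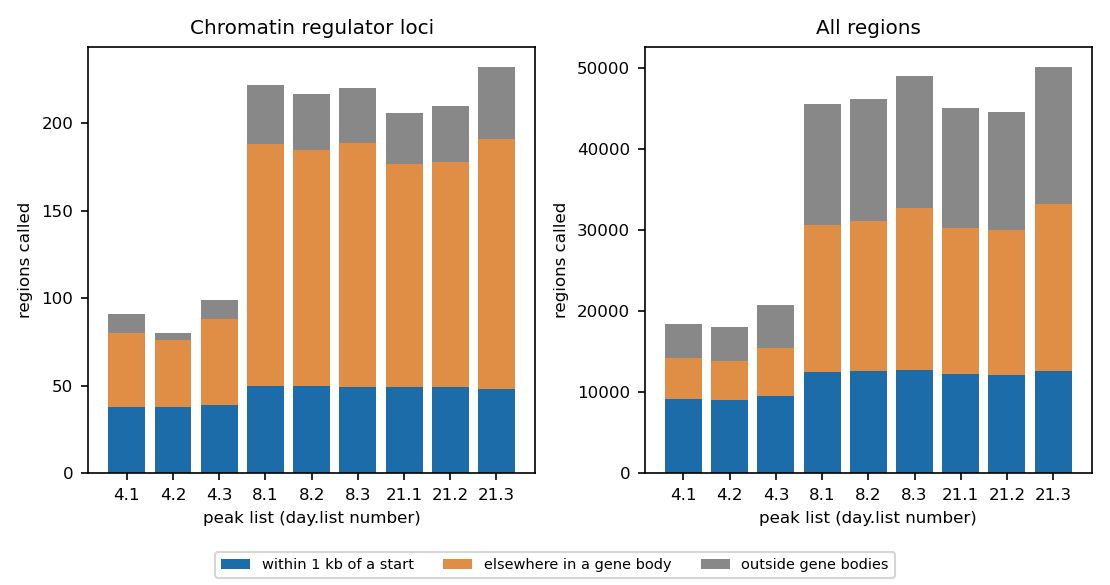
Regions called per list (y axis, counts) in each of the 9 lists (x axis, day and list number), split by position relative to genes, for the 39 loci (left) and for all regions (right). The blue part near starts goes from 38 or 39 member regions on day 4 to 48 to 50 later, while the orange part inside genes grows from 38 to 49 up to 128 to 143.

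A region counted as gained on day 8 when called in 3 of 3 day 8 lists and in no day 4 list. Of the 284 member regions 82 were gained (28.9%), where 25.7% of all regions were, and 0 were lost, as were 6 of all regions (0.00953%). The gains lay inside gene bodies for 61 (33.7% of the member regions there), outside genes for 15 (30.6%) and near a start for 6 (11.1%). Over all regions 29.3%, 29.4% and 13.3% were gained at these positions. Of the 39 members 29 had at least 1 gain, a count not given here over all genes. Of the 173 member regions called in no day 4 list, 47.4% were gained, against 40.9% of all such regions. Arid1b, with 36 union regions, gained 10, and Arid1b, Hdac4, Smarca2 and Tet2 together held 100 of the 284 regions and 26 of the gains. The number of regions of a member went with the length of its gene (Spearman rho 0.565 over 39 genes, a description). When each list was cut to its 19499 strongest peaks, the number in the shortest list, the members had 85.3 ± 4.73 regions on day 4 and 95 ± 5.29 on day 8, with 5 of 133 gained, where 3.18% of all such regions were, and 4 lost, where 1.47% were.

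Every member had as many or more regions on day 8 as on day 4: 34 had more and 5 as many. The lists of the 2 days did not overlap for 30 members, where 52.9% of the 16073 genes with a region did not. Members had a median of 5 union regions, against 2 over these genes, so the 2 shares come from loci of unlike size. A second measure set each gene's number of regions against the length of its list, as log2((regions + 0.5) / relative list total), in limma with Benjamini-Hochberg adjustment over the 7834 genes with at least 3 regions, counted over all 9 lists, so that a gene can enter through its later regions alone. It tests whether a locus grew more or less than the list did. Of the 32 members tested, 1 was higher on day 8, where 15.6% of all genes were, and 8 were lower, where 24.5% were. The median log2 difference was −0.08 over members and −0.14 over all genes. All 8 lower members had more regions on day 8 than on day 4, and 5 of them would have been lower with every one of their regions called on day 8. Without division by the list totals 31 members were higher and 0 lower, and the median over all genes moved to 1.17. The count of 9 calls fell to 2 without day 8 list 3 and to 5 without day 8 list 1 or list 2. On the strongest peaks of each list 0 members passed (limma), where 0.16% of 3131 genes were higher and 0.511% lower.

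**Figure D3:**
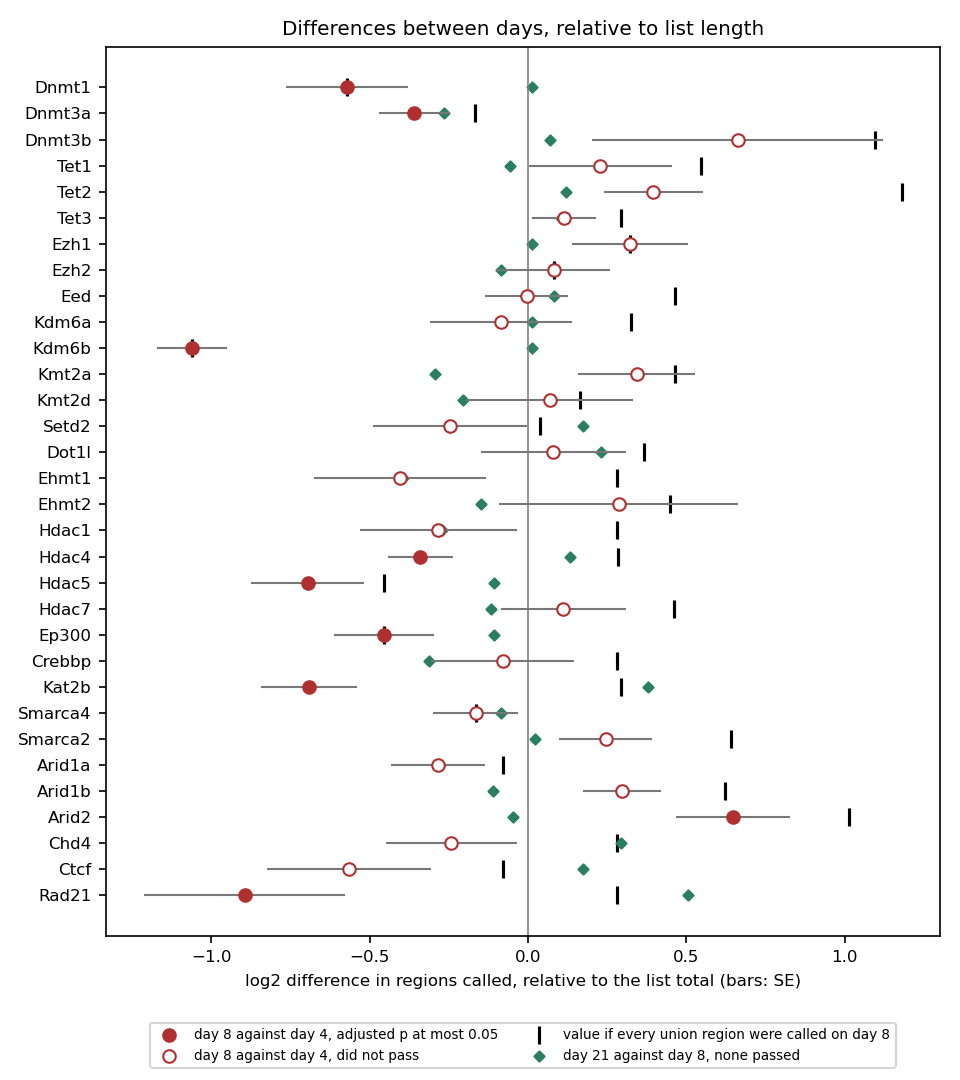
Log2 difference in regions called relative to list length (x axis) for the 32 members tested (y axis), for day 8 against day 4 (circles with SE bars, filled where the adjusted p was at most 0.05) and day 21 against day 8 (diamonds). The vertical ticks mark the value a gene would reach with every union region called on day 8, which lies below 0 for Kdm6b, Dnmt1, Dnmt3a, Hdac5 and Ep300 among the lower genes.

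The DNA methylation genes went from 16.3 ± 3.79 regions per list on day 4 to 44.3 ± 1.53 on day 8 and 44.0 ± 6.08 on day 21, over 58 regions. Dnmt3a, the de novo methyltransferase that acts in differentiating T cells, had 6, 5 and 6 regions on day 4, 12, 11 and 11 on day 8, and 9, 8 and 11 on day 21. Day 4 lay below both later days, which touched each other. Relative to list length it was lower on day 8 (log2 −0.36 ± 0.11 SE, adjusted p = 0.0273, limma) and on day 21 (−0.62 ± 0.11, adjusted p = 0.00232) than on day 4. The day 8 call was lost without day 4 list 1, day 8 list 2 or day 8 list 3, at a q of 0.001 or less (−0.29, adjusted p = 0.0517, limma) and with 50% of a region required to be covered (−0.20, adjusted p = 0.408). Both calls were lost on the strongest peaks, and both values turned positive without division by the totals (0.94 and 0.67). Among its 13 regions, 5 were called in all 9 lists, and these include the one over its outer starts and one at an internal start (chr12:3890895-3891759). The gained region with the most bases under peaks, chr12:3891868-3892346, lay 0.124 kb beyond that internal start, and chr12:3868500-3868900 in the gene body was called in 0 of 3 lists on days 4 and 8 and in 3 of 3 on day 21.

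Dnmt1, the maintenance methyltransferase that copies methylation after replication, had 2, 1 and 2 of its 3 regions on day 4 and 3 in each of the 6 later lists. Its values did not overlap between day 4 and the later days, although all 3 regions were at the ceiling later. It was lower relative to list length on day 8 (−0.57 ± 0.19, adjusted p = 0.0373) and day 21 (−0.56 ± 0.19, adjusted p = 0.0414), calls that were lost without most single lists and at a q of 0.001 or less (−0.33 on both days), and that turned to 0.73 without division. The region at its inner starts was called in 9 of 9 lists, and its gained region was chr9:20916188-20916538 in the gene body, 36.1 kb from its innermost listed start. Its outermost listed start lay under no region. Dnmt3b, the other de novo enzyme, had 2, 0 and 1 regions on day 4, 4, 5 and 4 on day 8 and 3, 5 and 6 on day 21, and passed in no comparison.

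Tet2, a TET oxidase whose loss is known to favour memory CD8 T cells, had 3, 2 and 3 regions on day 4, 10, 9 and 10 on day 8, and 9, 9 and 14 on day 21. It was higher relative to list length on day 21 than on day 4 (0.52 ± 0.16, adjusted p = 0.0258), but not on day 8 (0.40 ± 0.16, adjusted p = 0.0668). The day 21 call was lost without day 4 list 2 or day 21 list 3, with 50% of a region covered (0.22, adjusted p = 0.481, limma) and within 50 kb (0.34, adjusted p = 0.105), and its sign turned with regions of gene bodies only (−0.09). Day 21 list 3 held 5 more of the 17 regions than either other list of that day. The start and a region of the gene body 25.1 kb from the start (chr3:133518451-133519337) were open in all 9 lists. The gained region with the most bases was chr3:133526205-133526776, 17.6 kb from the start in the gene body, and another gained region lay 68.9 kb outside the gene.

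Tet1 had 2, 1 and 3 regions on day 4, 7, 6 and 6 on day 8, and 6 in each day 21 list, and Tet3 had 3, 3 and 4, then 10, 9 and 10, then 10, 10 and 11. For both TET genes each later list lay above each day 4 list, and neither passed relative to list length (0.23 ± 0.22 and 0.11 ± 0.10 on day 8). Their listed starts were among the regions gained: chr10:62886014-62887430 over the start of Tet1 and chr6:83441009-83442002 over that of Tet3 were called in 0 of 3 lists on day 4 and in 3 of 3 on days 8 and 21. At Tet3 the gained start is internal: a second region over the 5′ end of the gene body (chr6:83455654-83457230) was called in all 9 lists.

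**Figure D4:**
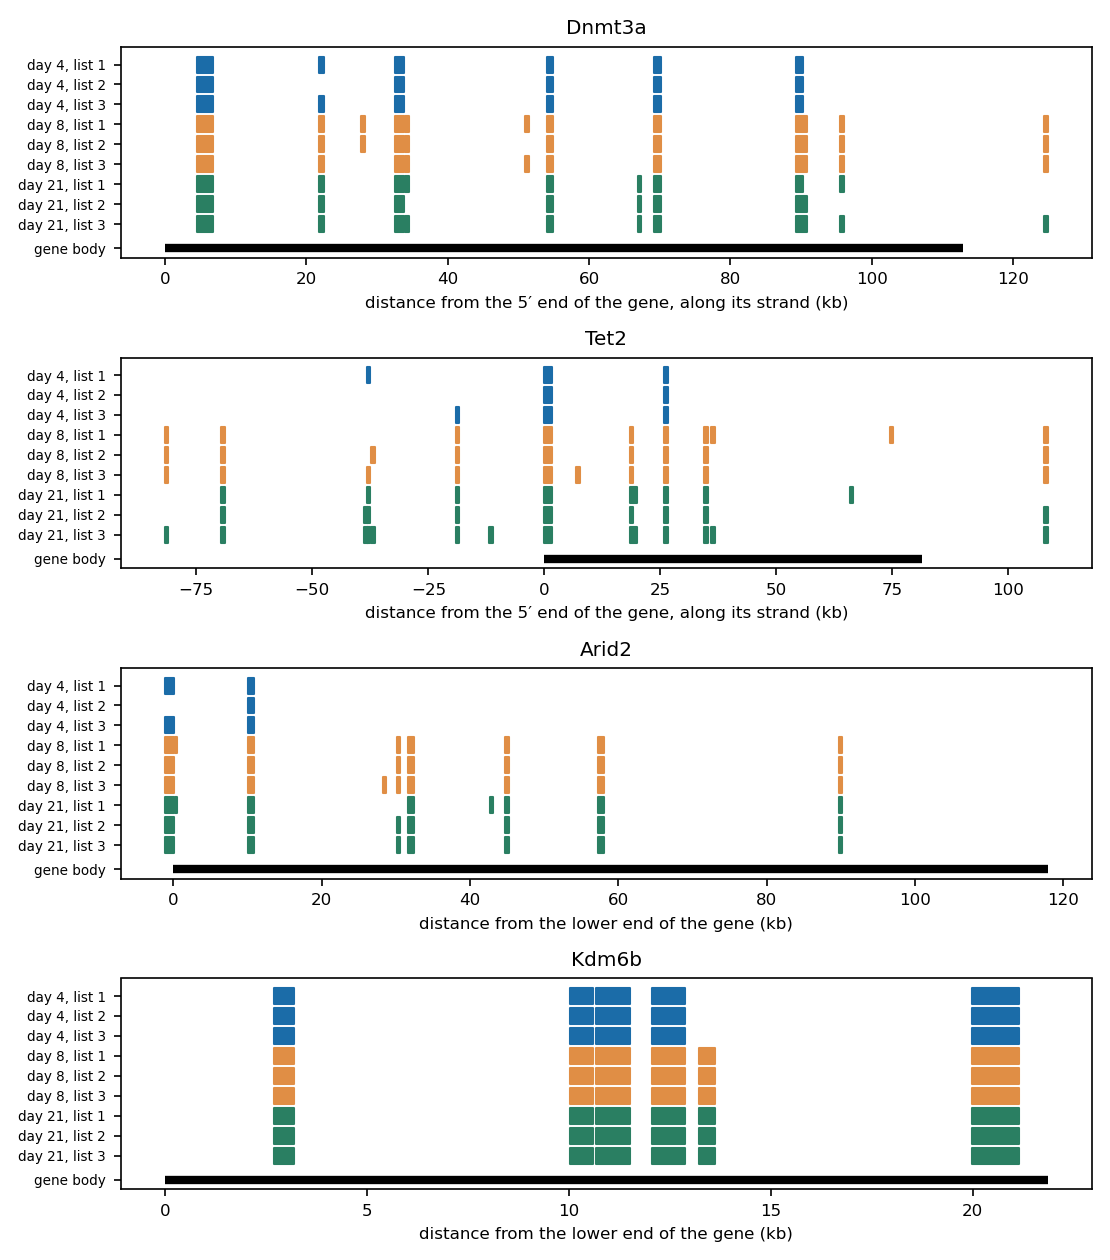
Regions called in each of the 9 lists (y axis) along 4 loci, with distance in kb on the x axis from the 5′ end of Dnmt3a and Tet2 along their strand and from the lower end of Arid2 and Kdm6b, whose strand is not in the tables used; the black bar is the gene body. At Tet2 and Arid2 most marks inside and around the gene appear from day 8 on, while Kdm6b has 5 of its 6 regions on day 4 already.

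The PRC2 subunits and H3K27 demethylases, which write and erase a repressive histone mark, had 12.7 ± 0.577 regions on day 4, 27.3 ± 1.15 on day 8 and 27.3 ± 1.53 on day 21. Ezh2, the catalytic subunit of dividing cells, had 2, 1 and 2 regions on day 4, 5 in each day 8 list and 4, 5 and 5 on day 21. The day 4 lists lay below all others, and relative to list length it did not pass (0.08 ± 0.18 on day 8, adjusted p = 0.746). Its gained region with the most bases was chr6:47560943-47561893, 33.1 kb from its listed start in the gene body. Ezh1, the other catalytic subunit, went from 1, 2 and 2 to 6 regions in every later list, and Eed, a subunit that binds the mark, from 2 in each day 4 list to 5, 6 and 6 and then 6, 5 and 7. Suz12, a core subunit, had its 1 region in all 9 lists.

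Kdm6b, the H3K27 demethylase that is induced by T cell activation, already had 5 of its 6 regions in each day 4 list and had all 6 in each later list. The single gain was chr11:69411733-69412132, inside the gene and called in 3 of 3 lists on each later day. Of the 32 members tested it was the lowest relative to list length on day 8 (−1.06 ± 0.11, adjusted p = 0.000138, limma) and on day 21 (−1.05 ± 0.11, adjusted p = 0.000161). With all 6 regions called in each later list, neither value could have been higher. Both calls were kept without any single list. They were lost with 50% of a region required to be covered (−0.53, adjusted p = 0.114, and −0.61, adjusted p = 0.0774, limma), on the strongest peaks (−0.18 and −0.66) and with division by regions near starts (−0.21 and −0.18), and the values turned to 0.24 without division. Kdm6a, its X-linked relative, had 2, 1 and 1 regions on day 4, 3, 4 and 4 on day 8 and 3, 4 and 4 on day 21, and did not pass.

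The H3K4, H3K36 and H3K79 methyltransferases went from 7 ± 2.65 regions to 21 ± 1 and 20.3 ± 3.06. Kmt2a, an H3K4 methyltransferase, had 2 in each day 4 list, 7, 8 and 7 on day 8 and 4, 7 and 7 on day 21, with 5 gained regions, and did not pass (0.34 ± 0.19 on day 8). Kmt2d, Setd2 and Dot1l, which methylate H3K4, H3K36 and H3K79, had means of 1.67, 1.33 and 2 on day 4 and of 4.67, 3.33 and 5.67 on day 8, and none passed. The H3K9 methyltransferases had 3.67 ± 0.577, 7 ± 1 and 6 ± 1. Suv39h1, which marks heterochromatin and is known for silencing memory genes in effector CD8 T cells, had its 1 region at the start in all 9 lists, as had Suv39h2. Ehmt1 and Ehmt2, the enzymes of H3K9 mono- and dimethylation, had 1 to 3 and 2 to 3 regions per list on the later days. Ehmt1 was lower on day 21 than on day 4 relative to list length (−0.80 ± 0.27, adjusted p = 0.0397), a call kept in 2 of 9 analyses that left out 1 list and lost with 50% of a region covered (−0.44, adjusted p = 0.35), and 0.49 without division.

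The histone deacetylases went from 17.3 ± 0.577 regions to 34.7 ± 2.31 and 34.7 ± 0.577. Hdac5, a class IIa enzyme, had 2 in each day 4 list, 3, 4 and 3 on day 8 and 3 in each day 21 list. It was lower relative to list length on day 8 (−0.70 ± 0.18, adjusted p = 0.0119) and day 21 (−0.80 ± 0.18, adjusted p = 0.00652), and the first of these was lost without day 8 list 3. Hdac4, another class IIa enzyme and the second largest locus of the set, had 10, 9 and 9 of its 29 regions on day 4, 20, 18 and 18 on day 8, and 21, 19 and 21 on day 21. It was lower on day 8 (−0.34 ± 0.10, adjusted p = 0.0249), a call lost without any one of 4 lists (day 4 lists 1 and 2, day 8 lists 2 and 3) and with 50% of a region covered (−0.11, adjusted p = 0.541, limma). Both turned positive without division (0.61 and 0.96 on day 8).

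Hdac7, a class IIa deacetylase expressed in thymocytes and T cells, had 2, 3 and 2 regions on day 4, 8, 7 and 6 on day 8 and 6, 7 and 6 on day 21, and did not pass (0.11 ± 0.20). A region over its internal starts, chr15:97831251-97832013, was called in no day 4 list and in all 6 later ones. The class I enzymes had few regions: Hdac1 had 1 on day 4 and 2 to 4 later, Hdac2 1 or 2 in every list, and Hdac3 1 in every list.

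Among the acetyltransferases, the set went from 6.33 ± 0.577 regions to 12.3 ± 0.577 and 13 ± 1. Ep300, the gene of the coactivator p300, had 2 in each day 4 list, 4 in each day 8 list and 3, 4 and 4 on day 21. It was lower relative to list length on day 8 (−0.45 ± 0.16, adjusted p = 0.0418, limma, kept in 2 of 9 analyses without 1 list) and day 21 (−0.56 ± 0.16, adjusted p = 0.0183, lost without day 21 list 1). All 4 regions of Ep300 were called in each day 8 list, so its day 8 value could not have been higher. Its relative Crebbp had 1 in each day 4 list, 3 in each day 8 list and 2, 2 and 3 on day 21, and did not pass. Kat2b, the gene of the acetyltransferase PCAF, had 3, 4 and 3 of its 11 regions on day 4, 5, 5 and 6 on day 8 and 7 in each day 21 list. It was the only member whose day 21 lists did not overlap those of day 8, where 4.91% of all genes did not. It was lower on day 8 relative to list length (−0.69 ± 0.15, adjusted p = 0.00576), a call kept without any single list but lost with 50% of a region covered (−0.53, adjusted p = 0.0776) and on the strongest peaks (adjusted p = 0.157, limma), and 0.61 without division. Its value for day 21 against day 8 was 0.38 ± 0.15 (adjusted p = 0.496, limma).

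The nucleosome remodellers were the largest group, with 23.3 ± 3.06 regions on day 4, 67.3 ± 3.06 on day 8 and 64 ± 1.73 on day 21 and 29 of the 82 gains. Arid2, the subunit that defines the PBAF form of SWI/SNF, had 2, 1 and 2 of its 10 regions on day 4, 8, 7 and 8 on day 8 and 8, 7 and 7 on day 21. It was the one member higher than the list on day 8 (0.65 ± 0.18, adjusted p = 0.0170, limma) and was also higher on day 21 (0.60 ± 0.18, adjusted p = 0.0246). Of its 10 regions 8 were called in no day 4 list. Arid2 thus met the filter of at least 3 regions only through the later lists, which favours a rise. The first call was lost without day 8 list 1 or list 3, and the second without day 4 list 2 or day 21 list 1 or list 2. Both were lost with 50% of a region covered (0.26 and 0.26, adjusted p = 0.269 and 0.263, limma), and the second with pseudocount 1 (0.38, adjusted p = 0.0572). It gained 5 regions, all inside the gene, with chr15:96319157-96319944 the widest under peaks and chr15:96344809-96345565 gained also among the strongest peaks of each list. Arid1a, the subunit of the BAF form, had 4 in each day 4 list, 8, 8 and 10 on day 8 and 7, 8 and 6 on day 21. It was lower on day 21 than on day 4 relative to list length (−0.56 ± 0.15, adjusted p = 0.0144), and 0.73 without division.

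Arid1b, the paralog of Arid1a, had 9, 7 and 12 of 36 regions on day 4, 30, 28 and 28 on day 8 and 27, 24 and 28 on day 21, and did not pass (0.30 ± 0.12, adjusted p = 0.0781 on day 8). The ATPase genes Smarca4 and Smarca2 had 2 and 4 to 5 regions per day 4 list, then 5 and 12 to 16, then 4 to 5 and 13 to 14, and neither passed. Chd4, a NuRD remodeller, had 1 on day 4, 2 to 3 on day 8 and 3 to 4 on day 21. Pbrm1, another PBAF subunit, had its start region in all 9 lists and a second one in 2 of the day 21 lists. Of the architectural genes, Ctcf, the insulator protein, had 1 in each day 4 list, 2 in each day 8 list and 2, 2 and 3 on day 21. Rad21, a cohesin subunit, had 1 in each day 4 list, then 1, 3 and 1, then 2, 2 and 3. Rad21 was lower on day 8 (−0.90 ± 0.32, adjusted p = 0.0455), kept in 1 of 9 analyses without 1 list, and 0.41 without division. Asxl1, a partner of the Polycomb deubiquitinase, had 1 or 2 in every list.

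The fold enrichment of a peak, the authors' own value, was ranked within each list after every list was reduced to its 19499 strongest peaks. This comparison was added after the lists were seen and has no test. Of the 36 member regions near a start of any gene that were called in all lists, 31 were among the strongest peaks of all 9. For 20 of these 31 (64.5%) all 3 day 8 percentiles lay below all 3 day 4 percentiles, where 38.1% of 7624 start regions did, and for 1 they lay above, where 9.94% did. The median shift was −18.4 percentile points for members and −6.46 for all start regions. Inside gene bodies 7 of 23 member regions lay below and 6 above, where 27.7% and 17.8% of all such regions did, and outside genes 0 of 3 lay below and 2 above, where 25.1% and 20.5% did. Between days 8 and 21, 3 of the 31 start regions lay below and 0 above, where 13.9% and 5.13% did. Of the 23 gene-body regions 0 lay below and 6 above (8.27% and 13.8% of all), and of the 3 outside regions 0 and 0 (8.97% and 12.1%).

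The start of Ctcf stood at percentiles 65.4, 63.4 and 69.2 on day 4, 19.2, 15.8 and 19.3 on day 8, and 33.6, 26.8 and 15.5 on day 21. The start of Ep300 stood at 60.9, 60.1 and 58.2, then 26.2, 16.2 and 14.6, then 22.6, 14.4 and 16.5. Both moved from the upper part of the lists to the lower part with no overlap between day 4 and the later days. A region 46.1 kb outside Ep300 (chr15:81539449-81540127), assigned to it by distance only, went the other way, from 48.8, 44.0 and 78.7 to 89.3, 89.9 and 86.7 and then 92.5, 93.7 and 81.9.

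The start of Smarca4 stood at 93.5, 87.2 and 85.0 on day 4 and at 68.2, 78.5 and 70.4 on day 8, while a region 5.78 kb outside the gene (chr9:21609855-21610324) went from 83.0, 61.6 and 60.8 to 95.3, 99.0 and 97.6. The start of Kdm6a was near the top of every day 4 list (99.3, 99.4 and 98.2) and lower on day 8 (84.9, 63.0 and 67.6). That of Ezh2 went from 87.0, 68.9 and 79.5 to 56.7, 63.1 and 60.4. The start of Hdac5 was the 1 that lay higher on day 8 (67.7, 68.7 and 81.1) than on day 4 (64.7, 66.7 and 65.0). That of Suv39h1 was among those that overlapped, at 96.5, 92.2 and 95.4 on day 4 and 89.9, 95.1 and 96.4 on day 8. The starts of Ezh1, Suz12 and Dnmt1 were among these too. These genes were picked after their values were seen.

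**Figure D5:**
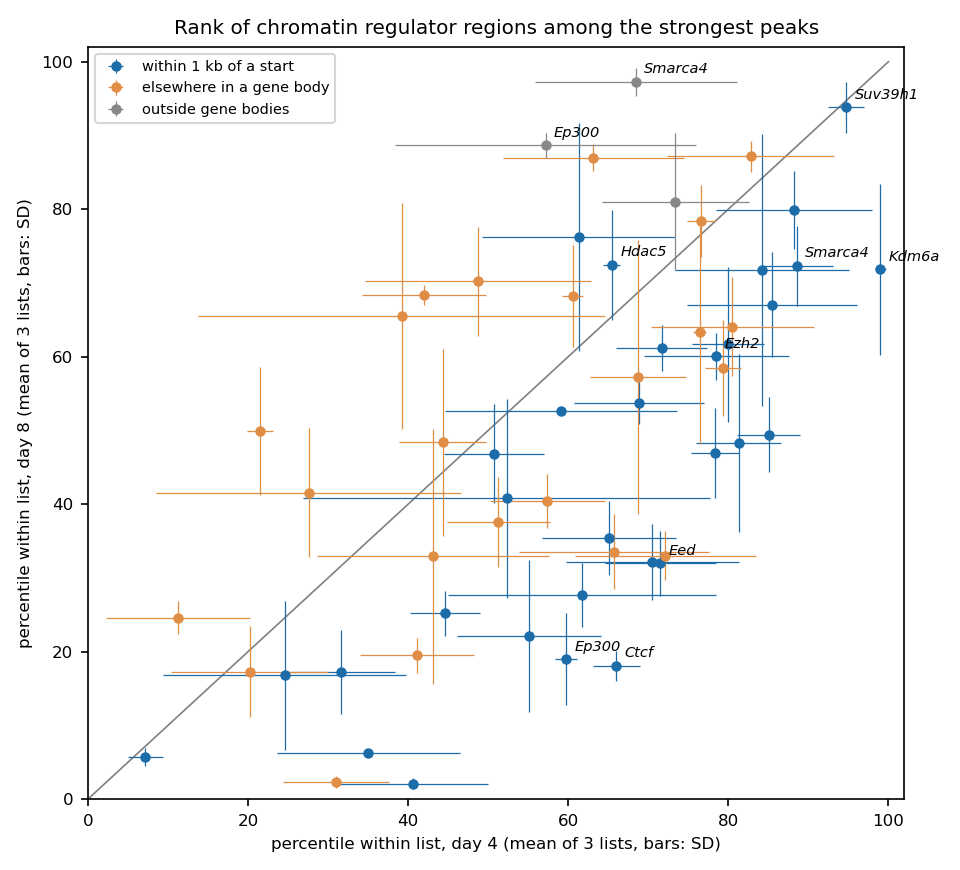
Percentile of each member region within its own list on day 4 (x axis) and day 8 (y axis), mean of 3 lists with SD bars, for the 57 regions among the 19499 strongest peaks of all 9 lists; the line marks equal ranks. Most start regions (blue) lie below the line, such as those of Ctcf and Ep300, while the outside regions (grey) of Smarca4 and Ep300 lie above it.

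Between days 8 and 21 no member passed the test. Of the 32 tested members 0 were higher and 0 lower (limma with Benjamini-Hochberg adjustment), where 0% of all genes were in each direction. At an unadjusted p under 0.05 there were 2 members and 708 genes, and without a floor on the spread 0 members passed as well. On average 12 members had more regions on day 21 than on day 8, 16 fewer and 11 as many. By region, 2 were gained, where 1.02% of all regions were, and 1 was lost, where 1.09% were. The gains were the Dnmt3a region named above and chr17:53558426-53558893, 7.88 kb outside Kat2b, and the loss was chr17:5252500-5252767 in the body of Arid1b. For day 21 against day 4 the members had 2 genes higher, where 15.4% of genes were, and 7 lower, where 24.2% were, or 31 and 0 without division. The lists of days 4 and 21 did not overlap for 30 members, where 50.2% of genes with a region did not, again with more regions per member than per gene. Of the 284 member regions 71 were called in 3 of 3 day 21 lists and no day 4 list, where 25.3% of all regions were. This comparison shares its day 4 lists with that of day 8.

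A wider list of 141 chromatin genes, none of them a member, was read the same way, and 80 had enough regions to be tested. On day 8, 5 were higher and 22 lower relative to list length, where 15.6% and 24.5% of all genes were, with a median of −0.25 beside −0.14 over all genes, and on day 21 against day 8 there were 0 and 0. Mta1, a subunit of the NuRD complex, had no region in any day 4 list and 3.67 ± 0.577 on both later days. It entered the test through the later days only, so no fold change is given. Gadd45a, which is linked to DNA demethylation, went from 1 in each day 4 list to 6 in each day 8 list (0.81 ± 0.14, adjusted p = 0.00157, limma). With 1 region per day 4 list, Gadd45a may also have met the filter through its later regions. The lower genes with the largest differences kept or gained regions. Sirt2, a deacetylase, had all 3 of its regions in every list (−1.30 ± 0.17, adjusted p = 0.000376, limma). Men1, a partner of the H3K4 methyltransferases, had 3.67 ± 0.577 of its 4 on day 4 and 4 in each later list (−1.18 ± 0.16, adjusted p = 0.00057, limma). Both had every region called on day 8, so neither value could have been higher. On day 21 against day 4, 5 were higher and 26 lower, where 15.4% and 24.2% of all genes were. Hdac9, a class IIa deacetylase, was among the higher genes. Its mean count rose from 0.667 ± 0.577 to 6 ± 2, out of 9. Hdac9 met the filter of at least 3 regions only through the later lists, so no fold change is given. Wdr5, a subunit of H3K4 methyltransferase complexes, stood at −1.29 ± 0.23 (adjusted p = 0.00203, limma). Its count was 2 out of 3 in every list of both days. The Wdr5 value thus comes from the longer lists and not from fewer open regions.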

How the data were processed

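ATAC-seq peaks were deposited as 9 lists, 1 per sample and 3 per day. Day and list number were read from each title, since the genotype tag holds the time and the time tag the genotype. Per the submitters' processing notes, the tools were MACS2, Picard, deepTools 2.0 and BWA 0.7.15 and the build mm10. Their roles and settings are not stated there. The deposited columns are coordinates, a fold enrichment, a score, and the −log10 of a p-value and of a q-value, all written by the authors' peak caller. Within a list they served for ranking, filtering and a check of depth. All q-values were 0.05 or less. Read totals are not in the lists. Summit heights were recovered from fold and −log10 p for at least 99.995% of peaks per list (tolerance 0.001).

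The 353295 peaks on the autosomes and X were merged into union regions, 95.3% of which were assigned to protein-coding genes with RefSeq positions (GRCm38.p6, which mm10 represents). The gene table has no strand, so starts came from RefSeq promoter entries, or both gene ends for genes without one, among them 5 members. A region counted as near a start if a start of any gene lay within 1 kb. Region counts were fitted with limma 3.58.1 (trend, robust; R 4.3.3) over all 9 lists, 1 term per day, 6 residual degrees of freedom, genes with at least 3 regions, pseudocount 0.5, threshold 0.05. The moderated variance was floored at that of 1 region called with probability 0.5 per list. Totals of regions, and shares, had exact permutation tests (20 arrangements). Other steps used scipy 1.17.1, numpy 2.4.6 and pandas 2.3.3 under Python 3.11.15, with figures from matplotlib 3.10.9.

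The members and lists were chosen with earlier results of these data known. Per-list values are given for each member that passed in a comparison and for 12 genes picked for their roles in CD8 T cells. Of the wider list, the genes with the 2 largest passing differences per direction are named. The floor was first set before moderation. It was moved after the fit had been tested on simulated data and the calls of the first form had been seen. For day 21 against day 8 (7540 to 7575 genes, 200 changed 2-fold, 5 draws), the fit found 101 to 113 changed genes, with 0 to 1 false calls, and the first form found 157 to 165, with 31 to 54. For day 8 against day 4 (7432 to 7487 genes) it found 47 to 71, with 18 to 54 false calls, and the first form 48 to 69, with 5 to 27, so these calls are not cleanly separated. The draws thinned all regions alike for day 4. In the data regions near starts went from a mean of 9213.67 to 12589.3 per list, and those in gene bodies from 5283.67 to 18905.3. The false calls of the draws do not cover that difference. All tests were two-sided. List numbers did not pair the lists across days. Alternatives tried were the floor, pseudocount, gene filter, scaling, replicate block, peak strength and q, covered share of a region, locus window and leaving out each list.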

Additional observations from a re-analysis of the deposited data

How the results depend on the processing

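The number of members passing for day 8 against day 4 was 9. It was 5 with at least 6 regions per gene, 16 with at least 1, 31 without division by list totals, 22 with division by regions near starts, 0 on the strongest peaks of each list, 5 with the pseudocount added after division (chosen after seeing the data) and 2 to 8 when 1 list was left out. For day 21 against day 4 it was 9, and 5, 15, 31, 19 and 0 under the first 5 of these, 14 with 50% of a region required to be covered, and 6 to 11 when 1 list was left out. For day 21 against day 8 it was 0 under all 23 alternatives run. The remaining alternatives, among them no floor, pseudocount 1 and a q of 0.001 or less, kept the total of calls within 1.5 times but not each direction. From 1 higher on day 8, there were 2 at a q of 0.001 or less, within 50 kb, in gene bodies only and with the pseudocount after division, and 4 with 50% covered. From 2 higher and 7 lower on day 21 against day 4, there were 1 and 12 with pseudocount 1 and 3 and 11 with 50% covered. With the floor set before moderation (chosen after seeing the data) 10, 0 and 9 members passed, and 27 genes higher and 20 lower for day 21 against day 8 in place of 0 and 0.

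Same-numbered lists did not deviate together across days, and the replicate block gave 6, 0 and 8 members, with Dnmt1, Ep300 and Rad21 no longer passing on day 8 and Dnmt1 and Ehmt1 on day 21.

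Over all genes, day 8 against day 4 gave 1221 higher and 1917 lower. The counts were 6535 and 0 without division, 4429 and 67 with division by regions near starts, 673 and 617 with at least 6 regions, 1349 and 6042 with at least 1, 749 and 3149 with pseudocount 1, 5 and 16 on the strongest peaks, 690 and 1298 with gene bodies only, and 1813 and 1178 with the pseudocount after division. Day 21 against day 4 gave 1204 and 1895, and under these settings in the same order 6381 and 0, 4603 and 19, 705 and 550, 1267 and 5986, 712 and 3162, 10 and 15, 669 and 1240, and 1776 and 1101. Day 21 against day 8 gave 0 and 0, with 0 and 2 without a floor and 0 and 1 with pseudocount 1.

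Without division every member that was lower turned positive. For day 8 the values were Dnmt1 0.73, Dnmt3a 0.94, Kdm6b 0.24, Hdac4 0.96, Hdac5 0.61, Ep300 0.85, Kat2b 0.61 and Rad21 0.41, and for day 21 Dnmt1 0.73, Dnmt3a 0.67, Kdm6b 0.24, Ehmt1 0.49, Hdac5 0.49, Ep300 0.73 and Arid1a 0.73. Division by regions near starts turned Dnmt1 (0.28), Dnmt3a (0.49), Hdac4 (0.51), Hdac5 (0.16), Ep300 (0.40) and Kat2b (0.16) on day 8, and Dnmt1 (0.31), Dnmt3a (0.25), Ehmt1 (0.072), Hdac5 (0.066), Ep300 (0.31) and Arid1a (0.31) on day 21. On the strongest peaks Hdac4 had 0.020 and Ep300 0.40 on day 8, and Ep300 0.074 and Arid1a 0.0087 on day 21, and with gene bodies only Tet2 had −0.088 on day 21. The reversals without division follow from the measure, which sets a locus against the length of its list.

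Of the regions, 82 were gained on day 8, or 5 on the strongest peaks and 86 to 95 without 1 list, and 0 were lost, or 4 on the strongest peaks. Between days 8 and 21, 2 were gained, or 1 on the strongest peaks, with 50% of a region covered or in gene bodies only, and 3 to 8 without 1 list. The 1 lost was 0 on the strongest peaks, 2 with 50% covered and 1 to 5 without 1 list. The difference of −3.67 regions between days 21 and 8 ran from −11.7 to 1.33 without 1 list, positive without day 21 list 1. That of the share near a start, −0.00911 percentage points, was 0.0174 at a q of 0.001 or less, 0.265 in gene bodies only, and −0.601 to 0.948 without 1 list. The 20 of 31 start regions ranked lower on day 8 were 10 of 19 among the 10000 strongest peaks and 20 to 22 without 1 list, both chosen after seeing the data. For the other shifts the cause was not tested. The lists hold no read totals, so the depth behind each count is unknown.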

Other observations

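Between days 8 and 21, the rank of some regions inside the member genes differed with no overlap between lists, among the 19499 strongest peaks of each list. All 3 day 21 percentiles lay above all 3 day 8 percentiles for 6 of 23 gene-body regions, where 13.8% of 2733 such regions did, and below for 0, where 8.27% did. They lay in Tet2, Tet3, Dnmt3a, Arid2, Smarca2 and Hdac4. The Tet3 region chr6:83381463-83382290 stood at 5.7, 21.7 and 6.4 on day 4, 23.7, 23.0 and 27.2 on day 8, and 50.5, 51.2 and 74.7 on day 21. The Tet2 region chr3:133518451-133519337 stood at 47.8, 75.1 and 73.5 on day 8 and at 75.9, 89.3 and 89.5 on day 21, and the Dnmt3a region chr12:3855643-3856469 at 40.2, 63.0 and 41.9 and then at 66.9, 66.7 and 74.5. The Hdac4 region chr1:92079791-92080549 stood higher on day 4 (69.9, 84.4 and 62.1) than on day 21 (50.2, 47.1 and 48.6). These regions were chosen after their values were seen, no test was run on them, and their link to transcription of the genes was not measured.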
